A study of Mus musculus with 4 samples.

Results

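Clec4f+ Timd4- Gpnmb- Kupffer-like macrophages are C1q-rich liver cells in which RNA of the Kupffer cell lectin Clec4f was detected and RNA of Timd4 and Gpnmb was not. They were chosen on measured values. Barcodes were kept that had 200 or more detected genes and no more than 10% of their UMIs (unique molecular identifiers, 1 count per captured transcript) from mitochondrial genes. A kept barcode counted as a member with at least 5 UMIs of C1qa, C1qb and C1qc together per 1000 UMIs, at least 1 UMI of Clec4f, and no UMI of Timd4, Gpnmb, Cd3d, Cd3e, Cd3g or Cd79a. Barcodes with UMIs of both Mki67 and Top2a, genes of dividing cells, were left out. This gave 1142 cells of 6237 kept and 6927 deposited barcodes. There were 220 and 366 such cells in NASH libraries 1 and 2, and 289 and 267 in control libraries 1 and 2.

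The droplet libraries came from C57BL/6J mice, with 2 libraries for mice fed the Amylin NASH model diet and 2 for control mice. The diet leads to nonalcoholic steatohepatitis (NASH), with fat storage, inflammation and scarring of the liver, and the study's title asks how myeloid cells diversify there. Non-parenchymal cells were sorted as CD45+ CD146-, that is, for a leukocyte marker and against an endothelial one, after digestion in the presence of flavopiridol, a blocker of transcription. The labels used here give no ages, sexes or control diet composition. They also do not say that each library is a separate mouse. The diet p-values therefore cover the spread among these 4 libraries alone, and that spread may be technical. In the later comparisons between groups of cells the library was a block. The p-values there cover how group differences vary between pools of cells of these same libraries, not the spread among libraries.

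Kupffer cells are the resident macrophages of the liver sinusoids, where they clear bacteria, aged red blood cells and debris. In mice, monocytes that enter an emptied Kupffer cell niche gain Clec4f early, while Timd4, a receptor for phosphatidylserine on dying cells, is carried mainly by long-resident cells. Gpnmb, a lysosomal glycoprotein, marks lipid-laden macrophages together with Trem2, Cd9 and Spp1.

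The NASH libraries held 13749657 and 15619962 UMIs and the control libraries 5513953 and 5684819, and the cells described here shared that difference. Their median was 7357 and 7367.5 UMIs per cell in NASH libraries 1 and 2, and 2544 and 2001 in control libraries 1 and 2, with 2100.5 and 2130 against 1237 and 1076 detected genes. The median mitochondrial share was 3.43% and 3.16% in NASH cells and 6.81% and 7.08% in control cells, and the summed UMIs were 1743027 and 2870671 against 837804 and 641000. Barcodes shared between pairs of libraries numbered 2 to 8, and 0 among the members. The labels name no day or batch, and depth and diet cannot be told apart. Some results are therefore also given in cells with at least 3000 UMIs (199 and 341 NASH cells, 102 and 59 control cells). Some are given with a mitochondrial limit of 5% (177 and 312 NASH cells, 51 and 49 control cells). Not every call that these limits change is named.

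Among all C1q-high Clec4f+ cells, the Timd4- Gpnmb- members were 38.8% of 567 and 45.1% of 811 cells in NASH libraries, a mean of 42.0% ± 4.48 (SD, n = 2), and 29.5% of 981 and 31.9% of 837 cells in control libraries, a mean of 30.7% ± 1.73. The rule sets this share, so it carries no test. The other NASH cells were mostly Gpnmb+ (235 and 237 cells, against 0 and 2 in control), and the other control cells mostly Timd4+ (67 and 155 cells in NASH, against 690 and 567 in control). Clec4f itself was found in 72.0% and 75.2% of the C1q-high cells in NASH libraries, and in 99.3% and 97.3% in control libraries.

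A cell without a Timd4 UMI need not lack the gene, and in control libraries the Timd4-negative share depended on depth. Among control Clec4f+ cells with fewer than 2000 UMIs, 54.7% and 52.8% had no Timd4 UMI, against 20.1% and 17.8% of cells with 3000 to under 5000 UMIs and 15.3% and 7.37% of cells with 5000 to under 8000. At 8000 UMIs or more the control values were 6 of 20 cells and 6 of 13 cells. In NASH libraries the Timd4-negative share stayed high at every depth from 2000 UMIs. It was 85.7% and 81.1% with 2000 to under 3000 UMIs and 77.3% and 72.6% with 8000 or more. The share of members, which also lack Gpnmb, fell with depth in NASH libraries too. It was 60.0% and 67.6% with 2000 to under 3000 UMIs and 30.7% and 39.3% with 8000 or more. Restricting the cells to at least 3000 UMIs left the share of members at 40.8% ± 4.78 in NASH and lowered it to 17.3% ± 2.36 in control. Thinning each cell to 2000 UMIs before the gate raised it to 70.3% ± 0.243 in NASH and 41.7% ± 3.77 in control.

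**Figure D1:**
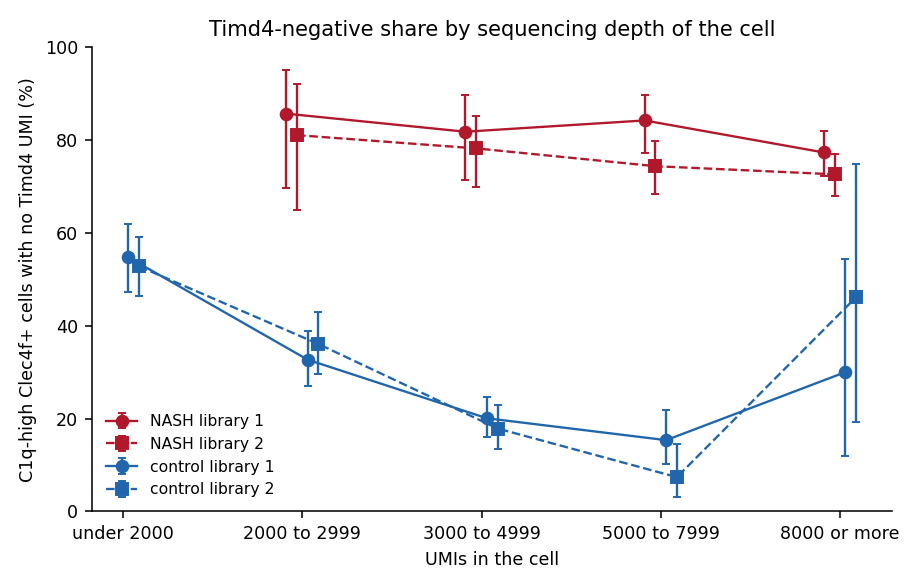
Share of C1q-high Clec4f+ cells without a Timd4 UMI (y axis, %) by the number of UMIs in the cell (x axis, 5 ranges), for each NASH library (red) and control library (blue). Points are shares with exact Clopper-Pearson 95% intervals, which cover counting error only, and ranges with fewer than 10 cells are not drawn. Control shares fall from above 50% under 2000 UMIs to 15.3% and 7.37% at 5000 to under 8000, while NASH shares stay above 70% from 2000 UMIs on.

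Some members stood near the limits of the gate. Exactly 1 Clec4f UMI was seen in 31 and 49 NASH and 6 and 17 control members, while 92 and 128 NASH and 6 and 20 control cells failed on Clec4f alone with 0 UMIs. Exactly 1 Timd4 UMI kept out 29 and 52 NASH and 292 and 204 control cells, and exactly 1 Gpnmb UMI kept out 78 and 106 NASH and 0 and 1 control cells. With 5 to 10 C1q UMIs per 1000, 29 and 30 NASH and 94 and 100 control members lay just inside the limit, and 8 and 14 NASH and 15 and 14 control cells with 2 to 5 lay just outside. With 9 to 10% mitochondrial UMIs, 2 and 4 NASH and 36 and 33 control members lay just inside, and 1 and 3 NASH and 36 and 35 control cells with 10 to 11% just outside.

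The Kupffer cell name was checked on markers that the gate did not use. Folr2, a folate receptor of resident macrophages, had a UMI in 62.3% and 62.6% of NASH and in 59.5% and 60.4% of control members thinned to 2000 UMIs, which left out 0 and 0 NASH and 104 and 133 control cells as too shallow. Lymphoid barcodes were kept barcodes with more than 1 UMI of Cd79a or of Cd3d, Cd3e and Cd3g together. They also had fewer than 1 C1q UMI per 1000, which left out barcodes with much macrophage RNA. Their shares of macrophage genes may therefore understate the background. Folr2, which these barcodes should lack, was held by 3.19% and 1.53% in NASH and 1.59% and 1.30% in control libraries. Summed members also held the complement receptor Vsig4 at 2323 and 2023 CPM (the gene's UMIs relative to the library total, scaled with TMM factors) in NASH and 2352 and 2560 CPM in control libraries, and the secreted scavenger protein Cd5l at 5999.7 and 6279.6 against 3731 and 4588 CPM. In thinned barcodes of NASH library 1, Vsig4 had a UMI in 77.3% of members and 8.51% of lymphoid barcodes. For Cd5l these shares were 91.4% and 26.6%. Marco, another Kupffer cell marker, was nearly absent from NASH members, with a UMI in 0% and 1.91% of thinned cells. Clec4f, a gate gene, had medians of 16 and 20.5 UMIs in NASH and 10 and 7 in control members. A Clec4f UMI was also seen in 19.1% and 19.8% of NASH and 46.5% and 28.0% of control lymphoid barcodes, at median depths of 4218 and 4082 against 4521 and 2970.5 UMIs. Free RNA and doublets cannot be told apart in these barcodes.

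Some control members may be cells whose Timd4 RNA was missed, since the Timd4-negative share there fell with depth. The part of this in the diet differences below was not tested. The first comparison asked how the Timd4- Gpnmb- cells differed between the diets. In NASH they held far more RNA of lipid- and scar-associated macrophage genes (Trem2, Cd9, Cd63, Mmp12), of MHC class II genes and of monocyte-derived macrophage genes (Ms4a7, Cx3cr1). They held far less RNA of the hemoglobin scavenger receptor Cd163 and of complement genes (C2, C4b, C6), and less of several Kupffer identity genes. Of 8059 genes tested on sums per library, 1597 were higher in NASH (19.8%) and 1454 lower (18.0%) by edgeR (quasi-likelihood F test, Benjamini-Hochberg adjusted p under 0.05). The median log2 fold change of all genes was -0.04 with TMM scaling and -0.41 with scaling to library totals alone. On that second scale 855 genes were higher and 2710 lower (24.0% of calls higher, against 52.3% with TMM), so changes are given relative to the typical gene.

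Trem2, a receptor for lipids and apolipoproteins on phagocytes, stood at 731 and 691 CPM in NASH libraries and at 43.4 and 55.5 CPM in control libraries. The libraries of the diets did not overlap, and the log2 fold change of 3.86 (SE 0.19) passed with an edgeR adjusted p of 4.03e-08. After thinning, 67.3% and 59.0% of NASH members held a Trem2 UMI against 9.19% and 9.70% of control members, and 11.7% and 6.11% against 1.59% and 0% of lymphoid barcodes did. The tetraspanin Cd63 stood at 519 and 489 against 8.46 and 13.5 CPM (log2 5.54, SE 0.23, edgeR adjusted p = 1.13e-08), and the tetraspanin Cd9 at 371 and 279 against 13.8 and 12.2 CPM (log2 4.63, SE 0.25). Mmp12, the macrophage elastase, reached 446 and 502 CPM in NASH against 9.52 and 25.7 CPM in control libraries (log2 4.81, SE 0.29). These 4 genes kept their calls in every alternative tried.

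Trem2 and Cd9 were found in the same cells in 29.5% and 21.3% of thinned NASH members and in 0 of 185 and 0 of 134 thinned control members, which allows shares of up to 1.62% and 2.24% (3 counts of the total). Cd9 alone had a UMI in 43.6% and 31.4% of NASH and 2.70% and 1.49% of control members, and in 24.5% and 14.5% of NASH and 19.0% and 10.4% of control lymphoid barcodes, so the NASH members lay above the lymphoid barcodes and the control members below them. Some lymphoid barcodes may carry Cd9 themselves, so their share need not be background. Gdf3, a TGF-beta family ligand, had 298 UMIs in NASH and 0 in control members, at least 41.3-fold higher when 3 counts over the control group are taken as the floor. Its edgeR adjusted p was 0.00319, with a range of 7.87e-34 to 0.0697 over the alternatives and no call without control library 1. Olfml3, a secreted matrix protein, had 205 against 3 UMIs, a depth-scaled ratio of 28.4 (95% interval from counting error 9.59 to 139).

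Ms4a7, a membrane protein of monocyte-derived macrophages, stood at 264 and 276 CPM in NASH against 19.0 and 35.2 CPM in control members (log2 3.35, SE 0.24). The integrin Itgax stood at 66.9 and 53.1 against 5.29 and 9.48 CPM (log2 3.04) and the actin-capping protein Capg at 402 and 345 against 52.9 and 48.7 CPM (log2 2.87). Spp1 (osteopontin) had 57.1 and 51.1 against 0 and 6.77 CPM and the fatty acid binding protein Fabp5 73.5 and 70.1 against 0 and 9.48 CPM. Both passed the edgeR test (adjusted p = 0.000133 and 0.000286) but not DESeq2. The collagenase Mmp13 stood at 42.7 and 93.5 against 3.17 and 1.35 CPM (log2 4.84, SE 0.67), and its call was lost without control library 1 (log2 5.65) or control library 2 (log2 4.44) and with at least 10 C1q UMIs per 1000 (log2 4.61).

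Over the whole lipid- and scar-associated list, 26 of 28 tested members were higher in NASH and 0 lower, with a median log2 fold change of 2.21 against -0.04 for all genes. Fabp4 (44.0 and 51.1 against 45.5 and 16.2 CPM) and Mmp14 (49.2 and 47.5 against 13.8 and 52.8 CPM) did not pass. The count was 24 of 27 with the mitochondrial limit of 5%, 25 of 27 in cells with at least 3000 UMIs and 21 of 28 with library totals. The lipoprotein lipase gene Lpl stood at 1555 and 1575 CPM in NASH against 655 and 1032 CPM in control members (log2 0.90, SE 0.19).

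**Figure D2:**
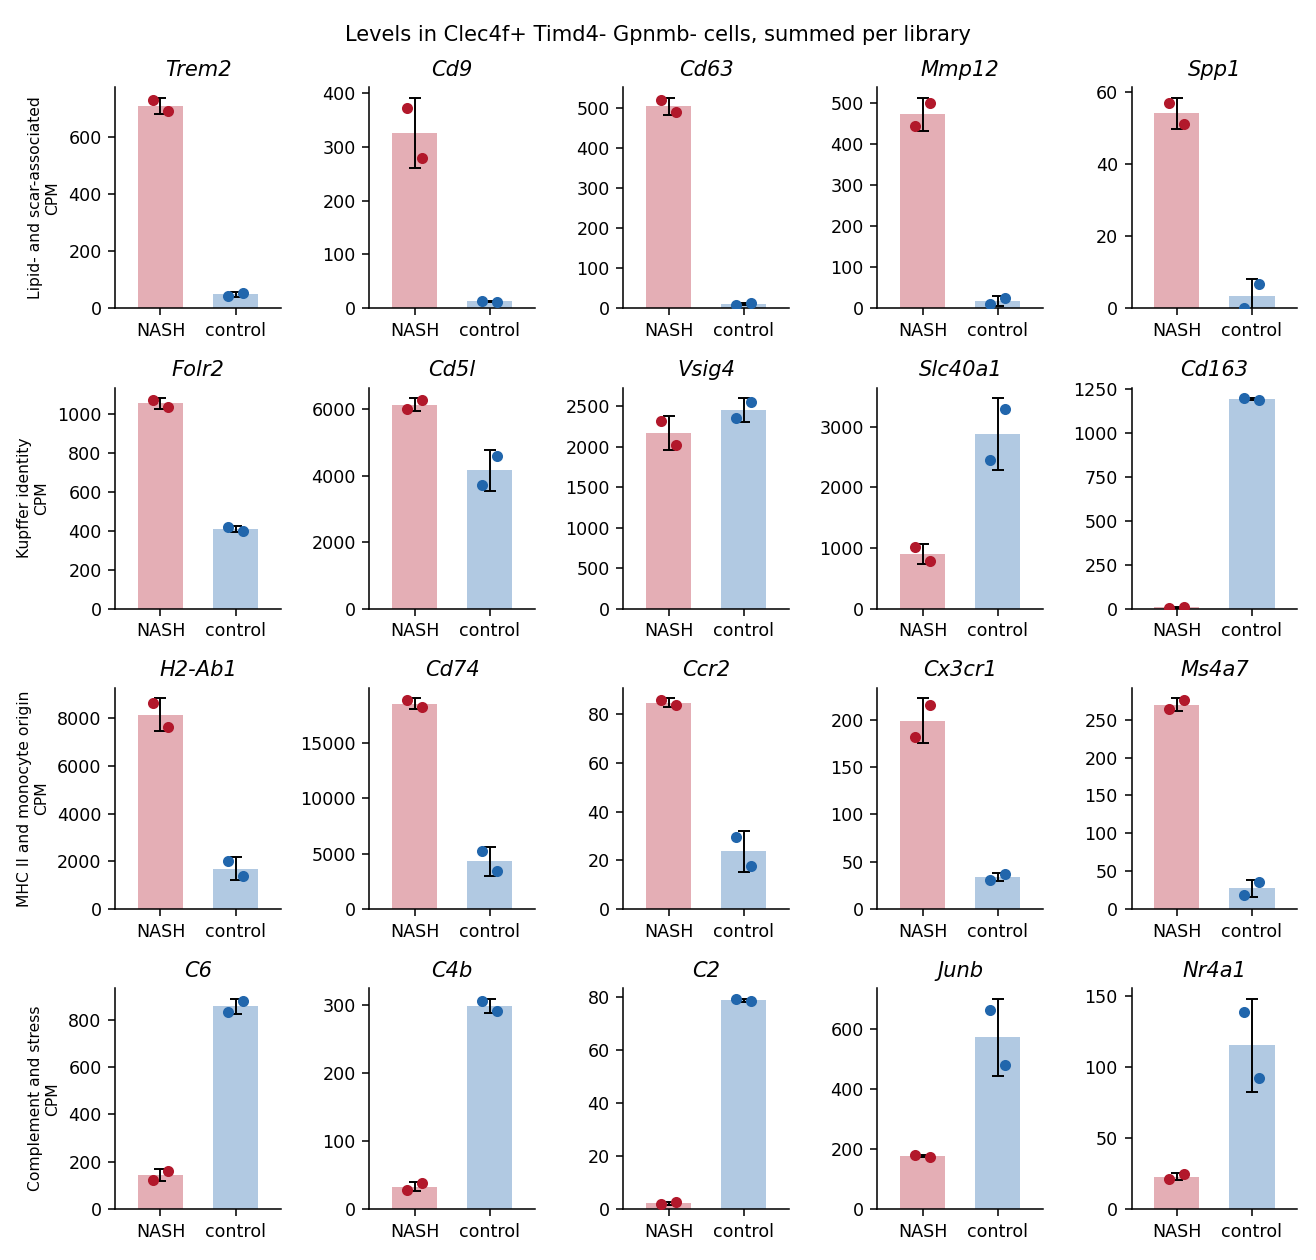
CPM in the Timd4- Gpnmb- cells for 20 genes, summed per library, with NASH (red) left of control (blue); dots are libraries, bars are means and error bars SD (n = 2 per diet). Each panel has its own linear axis from 0. Trem2, Cd9, Cd63, Mmp12 and Spp1 are high in both NASH libraries, Cd163, C6, C4b and C2 are high in both control libraries, and Vsig4 lies between 2023 and 2560 CPM in all 4 libraries.

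Kupffer identity genes did not move as a block. Of 27 tested members, 7 were higher in NASH, 14 lower and 6 without a call, with a median of -0.62. Cd163, which takes up haptoglobin-hemoglobin complexes, was nearly absent, at 3.94 and 10.3 CPM in NASH against 1194 and 1186 CPM in control members. Its log2 fold change was -7.25 (SE 0.27) at an edgeR adjusted p of 4.15e-09, and 0% and 2.19% of thinned NASH members held a UMI against 81.6% and 80.6% of control members. The share in lymphoid barcodes was 0% and 0.763% in NASH and 3.17% and 5.19% in control libraries. Of the next genes, the iron exporter Slc40a1 stood at 1019 and 788 against 2452 and 3295 CPM (log2 -1.67, SE 0.18), the mannose receptor Mrc1 at 313 and 365 against 945 and 1101 CPM (log2 -1.59, SE 0.16), the lectin Fcna at 428 and 461 against 1549.7 and 1388 CPM (log2 -1.72) and the cadherin Cdh5 at 198 and 167 against 382 and 439.9 CPM (log2 -1.17). The receptor for the growth factor CSF1, Csf1r, was lower by a smaller amount, at 1099.8 and 1099.4 against 1647 and 1741 CPM (log2 -0.62), and its call was lost without NASH library 1 (log2 -0.60) or NASH library 2 (log2 -0.61).

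Other Kupffer genes were higher in the NASH members. Cd207 (langerin), a lectin of Langerhans cells and of some liver macrophages, stood at 701 and 614 CPM in NASH against 240.1 and 162 CPM in control members (log2 1.70, SE 0.19, edgeR adjusted p = 3.99e-05). Folr2 stood at 1075 and 1036 against 419 and 399 CPM (log2 1.37, SE 0.14) and the platelet-binding lectin Clec1b at 875 and 1048 against 535 and 421 CPM (log2 1.01, SE 0.16). Cd5l passed as well (log2 0.56) but was lost without NASH library 2 (log2 0.55) and with library totals (log2 0.18). Vsig4 (log2 -0.18, adjusted p = 0.346) and the F4/80 gene Adgre1, at 562 and 558 against 535 and 762 CPM (log2 -0.21, adjusted p = 0.357), missed the edgeR threshold.

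The control libraries differed in Marco, a scavenger receptor for bacteria. Marco stood at 7.22 and 20.2 CPM in NASH and at 294 and 2622 CPM in control members, and its log2 fold change of -6.62 (SE 1.96) did not pass (edgeR adjusted p = 0.133, from 7.73e-05 to 0.493 over the alternatives). Without control library 1 (log2 -7.43) or control library 2 (log2 -4.30) it did. The heme oxygenase Hmox1 stood at 353 and 583 against 1416 and 3621 CPM (log2 -2.42, adjusted p = 0.117, from 4.75e-07 to 0.512 over the alternatives). It passed without NASH library 1 (log2 -2.08), NASH library 2 (log2 -2.81) or control library 1 (log2 -2.92). Between the libraries of 1 diet, 25 of 2548 genes (0.981%) differed over 2-fold in NASH and 63 of 2686 (2.35%) in control members.

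Transcription factors of the macrophage lineage had 3 members higher and 7 lower of 20, with a median of 0.03 (0 and 9 with library totals). The shares over all genes tested were 19.8% higher and 18.0% lower. Maf, a factor of resident macrophages, stood at 293 and 365 CPM in NASH against 685 and 884 CPM in control members (log2 -1.25, SE 0.17). Rxra, a partner of nuclear receptors, stood at 75.5 and 82.0 against 168 and 183 CPM (log2 -1.15) and Zeb2, a factor of Kupffer cell identity, at 305 and 324 against 507 and 652 CPM (log2 -0.88). Both were lost at the mitochondrial limit of 5% (log2 -0.62 and -0.51). Nr1h3, the oxysterol receptor LXR-alpha, was lower (360.3 and 360.0 against 467 and 571 CPM, log2 -0.52), and Id3, a Kupffer cell factor, higher (450.2 and 713 against 390.3 and 365 CPM, log2 0.62). The calls of Nr1h3, Id3 and Spic (log2 -1.40) were each lost in at least 4 of the alternatives. Without NASH library 1, NASH library 2 or control library 2 Nr1h3 stood at log2 -0.50, -0.51 and -0.37, and without NASH library 2 or either control library Id3 stood at 0.27, 0.70 and 0.59.

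MHC class II genes, which present antigen to CD4 T cells, were raised together in NASH. H2-Ab1, the beta chain of I-A, stood at 8640.3 and 7659 CPM in NASH members against 2027 and 1373 CPM in control members (log2 2.26, SE 0.18, edgeR adjusted p = 4.82e-06). The alpha chain H2-Aa stood at 7823 and 6690.3 against 2032 and 1386 CPM (log2 2.08), H2-Eb1 at 6294 and 5299 against 1549 and 1046 CPM (log2 2.16) and the invariant chain Cd74 at 18872 and 18208 against 5229.9 and 3384 CPM (log2 2.11). H2-DMa, which helps load peptides, rose with them, at 878 and 864 against 209 and 169 CPM (log2 2.20). Of the 14 tested members of the list, 10 were higher and 1, the costimulator Cd80 (9.19 and 12.3 against 25.4 and 24.4 CPM), was lower, with a median of 1.22. With the mitochondrial limit of 5%, which left 51 and 49 control cells, H2-Ab1 (log2 1.28) and Cd74 (log2 1.10) did not pass, and 8 of 14 members were higher.

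H2-Aa, H2-Ab1 and H2-Eb1 lie side by side on chromosome 17 (mm10). The promoters of H2-Aa and H2-Eb1 are shown because their RNAs moved together with diet and between the classes below. H2-Ab1 had no promoter entry to show. The 150 bases before the start are from RefSeq (GRCm38.p6), 5′ to 3′ on the gene's strand, at chr17:34287824-34287973 (minus strand) for H2-Aa and chr17:34305717-34305866 (plus strand) for H2-Eb1, with the letters CTGATTGG in capitals.
H2-Aa: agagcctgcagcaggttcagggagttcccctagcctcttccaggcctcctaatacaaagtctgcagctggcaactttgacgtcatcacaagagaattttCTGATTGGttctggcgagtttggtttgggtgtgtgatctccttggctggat
H2-Eb1: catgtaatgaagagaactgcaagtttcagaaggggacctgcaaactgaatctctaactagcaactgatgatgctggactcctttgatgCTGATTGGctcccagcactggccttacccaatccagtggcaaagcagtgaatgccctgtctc
CTGATTGG is the core of the Y box, one element of the promoter module through which the coactivator CIITA acts on MHC class II genes. Searched on both strands from 250 bases before to 50 after the start, it was found in 3 of 10 list genes with a promoter entry, and in 1346 of 32851 promoter entries in all (4.10%). The list count is of genes, some with several entries, and the other is of single entries, so they are not like for like. The first base of the Y box core lies 51 bases before the start of H2-Aa and 62 before that of H2-Eb1, and the third gene is H2-Oa. Ciita itself was low, at 17.1 and 21.0 CPM in NASH against 6.35 and 10.8 CPM in control members (log2 1.21, SE 0.39, edgeR adjusted p = 0.0265).

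Genes of monocyte origin and recruitment were also higher, with 15 of 20 tested members up and 2 down (median 1.64). Cx3cr1, the fractalkine receptor, stood at 182 and 215 CPM in NASH against 30.7 and 36.5 CPM in control members (log2 2.57, SE 0.21), and lysozyme Lyz2 at 9467 and 9724 against 2342 and 2633 CPM (log2 1.95, SE 0.14). Ccr2, the receptor that brings monocytes into tissue, was low in absolute terms, at 86.0 and 83.6 against 29.6 and 17.6 CPM (log2 1.80, SE 0.25). In thinned cells 11.8% and 8.74% of NASH and 2.70% and 2.24% of control members held a Ccr2 UMI, against 17.0% and 7.63% of NASH and 7.94% and 6.49% of control lymphoid barcodes, some of which may carry the gene themselves. The members' share was below that of the lymphoid barcodes in 3 of 4 libraries and above it in NASH library 2. Ly6c2, high in inflammatory monocytes, did not pass, with 21.0 and 28.1 against 29.6 and 23.0 CPM (log2 -0.08, edgeR adjusted p = 0.834). With the mitochondrial limit of 5% the list had 6 of 20 members higher and Ccr2 had a log2 fold change of 0.22 without a call, and in cells with at least 3000 UMIs it had 9 of 20.

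**Figure D3:**
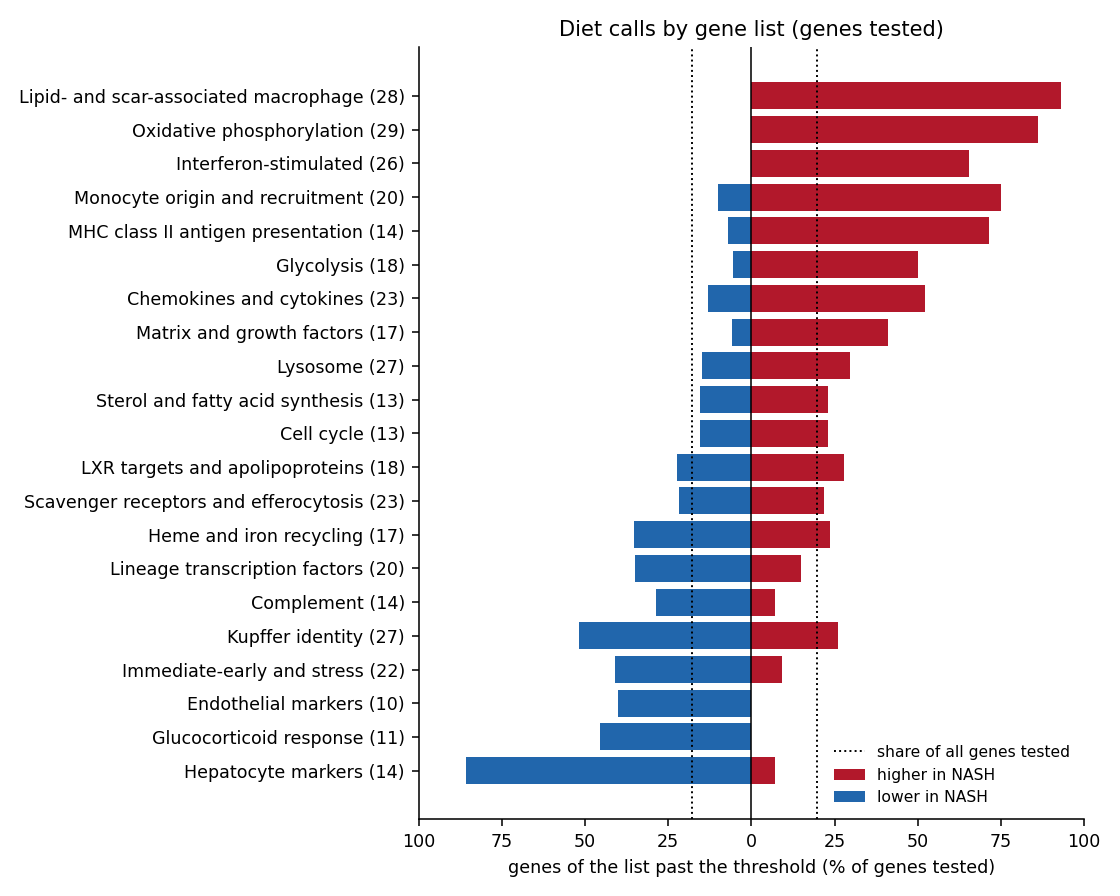
Percent of the tested genes of each list that were higher (red, to the right) or lower (blue, to the left) in NASH members by edgeR's test, for lists with at least 10 tested genes (number in brackets). Dotted lines mark the shares over all genes tested, 19.8% higher and 18.0% lower. The lipid- and scar-associated, oxidative phosphorylation, monocyte and MHC class II lists lie farthest to the right and the hepatocyte marker list farthest to the left.

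Of the complement genes, C2, C4b and C6 were lower in NASH. C2 stood at 1.97 and 2.77 CPM in NASH against 79.3 and 78.5 CPM in control members (log2 -4.95, SE 0.31), C4b at 28.2 and 38.0 against 306 and 291 CPM (log2 -3.15, SE 0.19) and C6 at 125 and 163 against 833 and 879 CPM (log2 -2.56, SE 0.17). The groups did not overlap for any of these 3. In the list, 4 of 14 genes were lower and 1 (the integrin chain Itgb2) higher, and the median was -0.09. Among all genes tested 18.0% were lower and 19.8% higher.

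For heme and iron handling, 4 genes were higher and 6 lower of 17 (3 and 7 with library totals). The heme transporter Slc48a1 (77.4 and 76.8 against 152 and 211 CPM, log2 -1.23) fell along with Cd163 and Slc40a1, and the ferritin light chain Ftl1 rose (17976 and 15675 against 8607 and 8769 CPM, log2 0.95), a call lost at the 5% mitochondrial limit (log2 0.16). Among LXR targets and apolipoproteins 5 of 18 were higher and 4 lower, against 4 and 6 with library totals. Apoe stood at 53557 and 57613 CPM in NASH against 14195 and 8699 CPM in control members (log2 2.28, SE 0.21, no call at the 5% limit with log2 1.41), Pltp, which transfers phospholipids, at 1452 and 1638 against 881 and 658 CPM (log2 1.00) and Apoc1 at 6344 and 5709 against 3659 and 2515 CPM (log2 0.96). The cholesterol exporter Abca1 went the other way, at 213 and 162 against 363 and 305 CPM (log2 -0.84, no call at the 5% limit with log2 -0.40). Of the scavenger receptors 5 of 23 were higher, such as the Fc receptor Fcgr1 (299 and 402 against 109 and 74.5 CPM, log2 1.92), and 5 lower, against 3 and 9 with library totals. Over all genes tested 19.8% were higher and 18.0% lower, and the LXR and scavenger receptor counts lay near these shares. Of the lysosomal genes 8 of 27 were higher, such as Ctsz (1019 and 988 against 326 and 352 CPM, log2 1.57) and Ctsd (log2 1.14), and 4 lower, and with library totals the balance turned to 5 higher and 10 lower.

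Genes of energy metabolism were higher in the NASH members. In oxidative phosphorylation 25 of 29 nuclear-encoded subunits passed as higher and 0 as lower (median 0.91), such as Uqcrc1 at 146 and 159 CPM in NASH against 38.1 and 37.9 CPM in control members (log2 2.00, SE 0.19), Sdhb (log2 1.58) and Atp5g1 (log2 1.57). The count was 9 of 29 at the mitochondrial limit of 5%. In glycolysis 9 of 18 were higher and 1, the hexokinase Hk2, lower (median 0.71), such as Ldha at 455 and 472 against 137 and 149 CPM (log2 1.70, SE 0.16) and Pkm at 402 and 442 against 171 and 161 CPM (log2 1.34). The mitochondrial share of UMIs was lower in NASH members, as given above, while these lists were higher, and its part in them was not tested. In sterol and fatty acid synthesis 3 of 13 were higher and 2 lower, against 2 and 3 with library totals. These counts lay near the shares over all genes tested, 19.8% higher and 18.0% lower.

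Interferon-stimulated genes were higher in 17 of 26 cases and lower in 0 (median 1.19), such as Rtp4 at 244 and 352 CPM in NASH against 77.2 and 60.9 CPM in control members (log2 2.10, SE 0.21), Oas1a (log2 2.12), Zbp1 (log2 2.00) and Ifi27l2a at 1726 and 2267 against 820 and 754 CPM (log2 1.34). The count was 25 of 26 without NASH library 1 and 10 of 25 without NASH library 2, 10 of 26 with library totals and 10 of 25 at the 5% limit. Of chemokines and cytokines 12 of 23 were higher and 3 lower (6 and 4 with library totals). Il1rn, which blocks interleukin-1, stood at 135 and 109 against 32.8 and 32.5 CPM (log2 1.89, SE 0.21), and Il1b itself at 138 and 176 against 333 and 307 CPM (log2 -1.02, no call at the 5% limit with log2 -0.58). Ccl12 had 76 against 1 UMIs, a ratio of 31.6 (95% interval 5.50 to 1265). Of matrix and growth factors 7 of 17 were higher and 1 lower (4 and 5 with library totals), among them Igf1 (635 and 634 against 359 and 395 CPM, log2 0.75) and the gelatinase Mmp2 with 49 against 1 UMIs, a ratio of 20.4 (3.49 to 821).

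Immediate-early and stress genes were lower in 9 of 22 cases and higher in 2 (median -0.81). The nuclear receptor Nr4a1 stood at 21.0 and 24.6 CPM in NASH against 139 and 92.0 CPM in control members (log2 -2.33, SE 0.24) and Junb at 180.5 and 176 against 664 and 482 CPM (log2 -1.69). Fos (log2 -1.56) and Dusp1 (log2 -1.60) passed too, but not at the 5% limit (log2 -1.35 and -1.20). Of the glucocorticoid response genes 5 of 11 were lower and 0 higher, Cd163 and Dusp1 among them. Among all genes tested 18.0% were lower and 19.8% higher.

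The remaining largest falls named by the rule were Serpina3k (1.31 and 1.19 CPM in NASH against 50.8 and 65.0 CPM in control members, log2 -5.44), Mup3 (3.28 and 2.38 against 46.5 and 66.3 CPM, log2 -4.31) and Apoa1 (23.0 and 9.50 against 94.1 and 71.7 CPM, log2 -2.47), which hepatocytes make in large amounts. Hepatocyte markers summed to 296 and 146 CPM in NASH and 613 and 725 CPM in control members, with all 15 markers detected in each library, and 12 of 14 tested were lower and 1 higher. The leptin receptor Lepr (5.91 and 13.1 against 157 and 66.3 CPM, log2 -3.47, lost when cells were thinned before the gate, log2 -2.62) and Abhd11os (3 against 97 UMIs, ratio 0.0129, interval 0.00261 to 0.0387) fell as well. So did the transcription factor Ets2 (log2 -2.71), the Ras-binding adaptor Rassf2 (log2 -2.48) and the phosphatase Ptprm (log2 -2.48). The part of hepatocyte RNA in these values was not tested.

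RNA of other cell types in the members was limited and uneven. Endothelial markers summed to 227 and 179 CPM in NASH against 352 and 308 CPM in control members (0 higher and 4 lower of 10). Lymphocyte markers summed to 238 and 214 against 94.5 and 150 CPM (3 higher and 1 lower of 5 tested, with Ncr1, Klrb1c and Cd8a at 0 in both control libraries). Neutrophil markers stood at 84.2 and 1277 against 68.1 and 160 CPM (0 higher and 1 lower of 4), and the high value of NASH library 2 held S100a8 at 28.9 and 657 against 22.2 and 51.4 CPM. Erythroid and platelet markers stood at 2.55 and 232 against 308 and 971 CPM (0 called of 4). Dendritic cell markers summed to 40.2 and 47.0 against 72.1 and 102 CPM (1 lower of 2 tested), stellate cell markers to 60.6 and 61.2 against 43.7 and 46.5 CPM (1 higher of 2), cell cycle genes to 1268 and 1054 against 739 and 836 CPM (3 higher and 2 lower of 13), and cholangiocyte markers to 60.6 and 56.6 against 0 and 10.3 CPM, of which Spp1 was the 1 gene tested. Over all genes tested 19.8% were higher and 18.0% lower, and the cell cycle counts lay near these shares. The part of these other cell types in the results above was not tested.

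The second comparison set the Timd4- Gpnmb- cells beside Timd4+ Clec4f+ Gpnmb- cells of the same NASH libraries. The Timd4- Gpnmb- cells held more MHC class II RNA, more Cd207, Ccr2 and Cx3cr1, and less of 18 of 28 tested Kupffer identity genes. In the fit over 10 class sums with the library as a block, 134 of 9409 genes were higher (1.42%) and 145 lower (1.54%) in the Timd4- Gpnmb- cells, a split that became 112 and 196 with library totals. CPM in this and the following comparisons use the scaling factors of that fit. The Timd4+ cells were deeper, with medians of 9114 and 8268 UMIs in NASH libraries, and Timd4 itself chose the classes.

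H2-Ab1 stood at 8395 and 7445 CPM in the Timd4- Gpnmb- cells of NASH libraries 1 and 2 and at 3157 and 2669 CPM in the Timd4+ cells, with a log2 difference of 1.45 (SE 0.05) and an edgeR adjusted p of 4.90e-26. H2-Eb1 stood at 6115 and 5151 against 2224 and 1672 CPM (log2 1.55, SE 0.05), H2-Aa at 7601 and 6503 against 3075 and 2514 CPM (log2 1.34) and Cd74 at 18336 and 17697 against 7475 and 7078 CPM (log2 1.31). In every case the Timd4- Gpnmb- cells lay above the Timd4+ cells of both libraries, and 7 of 15 list members were higher and 2 lower. Cd207 showed the same order, at 682 and 597 against 158 and 212 CPM (log2 1.71, SE 0.10, edgeR adjusted p = 1.40e-11).

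Monocyte-linked genes were also higher in the NASH Timd4- Gpnmb- cells. Ccr2 stood at 83.5 and 81.2 CPM against 20.0 and 17.9 CPM in Timd4+ cells (log2 2.14, SE 0.22, edgeR adjusted p = 4.69e-10), Cx3cr1 at 177 and 209 against 34.5 and 85.4 CPM (log2 1.57) and Ms4a7 at 256 and 268 against 122 and 142 CPM (log2 0.97). When cells were thinned to 2000 UMIs before the gate, Ccr2 no longer passed (log2 0.62). Other large positive differences named by the rule were those of Itgax (log2 1.55), the stem cell antigen Ly6a (249 and 645 against 87.3 and 229 CPM, log2 1.53) and Olfml3 (log2 1.52, lost without NASH library 2 at log2 0.81). Mef2c, a transcription factor below the 50 CPM that the rule asks for but in the lineage list, stood at 30.6 and 27.3 against 5.45 and 6.51 CPM (log2 2.17), and the galectin Lgals1 had a log2 difference of 1.39. Of the monocyte list 7 of 22 were higher and 1 lower, but 3 and 0 (of 21) without NASH library 2.

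C6 showed the largest negative difference by the rule, at 122 and 159 CPM in the NASH Timd4- Gpnmb- cells against 384 and 469.6 CPM in Timd4+ cells (log2 -1.59, SE 0.09, edgeR adjusted p = 6.90e-19). Folr2 stood at 1044 and 1007 against 1746 and 1746 CPM (log2 -0.77, SE 0.06), Vsig4 at 2257 and 1967 against 3137 and 3062 CPM (log2 -0.56), Cd5l at 5829 and 6104 against 8420.4 and 8180.1 CPM (log2 -0.47), Slc40a1 at 990.2 and 766 against 1495 and 1191 CPM (log2 -0.61) and Cdh5 at 192 and 162 against 293 and 271 CPM (log2 -0.68). The 1 Kupffer identity gene that was higher was Cd207. The count of 18 lower genes ran from 11 to 17 (of 28 or 29 tested) when any 1 library was left out, with 12 without NASH library 1 and 11 without NASH library 2. The eosinophil-attracting chemokine Ccl24 stood at 437 and 367 against 695 and 723 CPM (log2 -0.86) and Apoc1 at 6164 and 5549 against 10379 and 10087 CPM (log2 -0.81). Others named by the rule were Ttc39c (log2 -1.49), the ubiquitin ligase Rnf31 (log2 -1.13, lost after thinning at log2 -0.65), and C4b (-1.19), Pcolce2 (-1.13), Cd300e (-0.91), Pmp22 (-0.88) and Ccdc148 (-0.88), of which the last 5 lost their calls without NASH library 2 (log2 -0.76, -0.85, -0.90, -0.55 and -0.27).

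Of 29 lipid- and scar-associated genes tested between these NASH classes, 10 were higher and 3 lower in the Timd4- Gpnmb- cells (median 0.27), and 3 higher and 1 lower without NASH library 2. Trem2 stood at 710.3 and 672 CPM against 565 and 536 CPM in Timd4+ cells (log2 0.32, SE 0.06, edgeR adjusted p = 0.000569) and lost its call without NASH library 1 (log2 0.32) or NASH library 2 (log2 0.35). Cd63 stood at 504 and 475 against 385 and 269 CPM (log2 0.65, and 0.41 without a call when NASH library 2 was left out). Mmp12 stood at 433 and 488 against 520.0 and 422 CPM, short of the threshold (log2 0.02, edgeR adjusted p = 0.967). In control libraries Trem2 stood at 41.7 and 52.9 CPM in Timd4- Gpnmb- cells and at 42.3 and 41.0 CPM in Timd4+ cells.

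**Figure D4:**
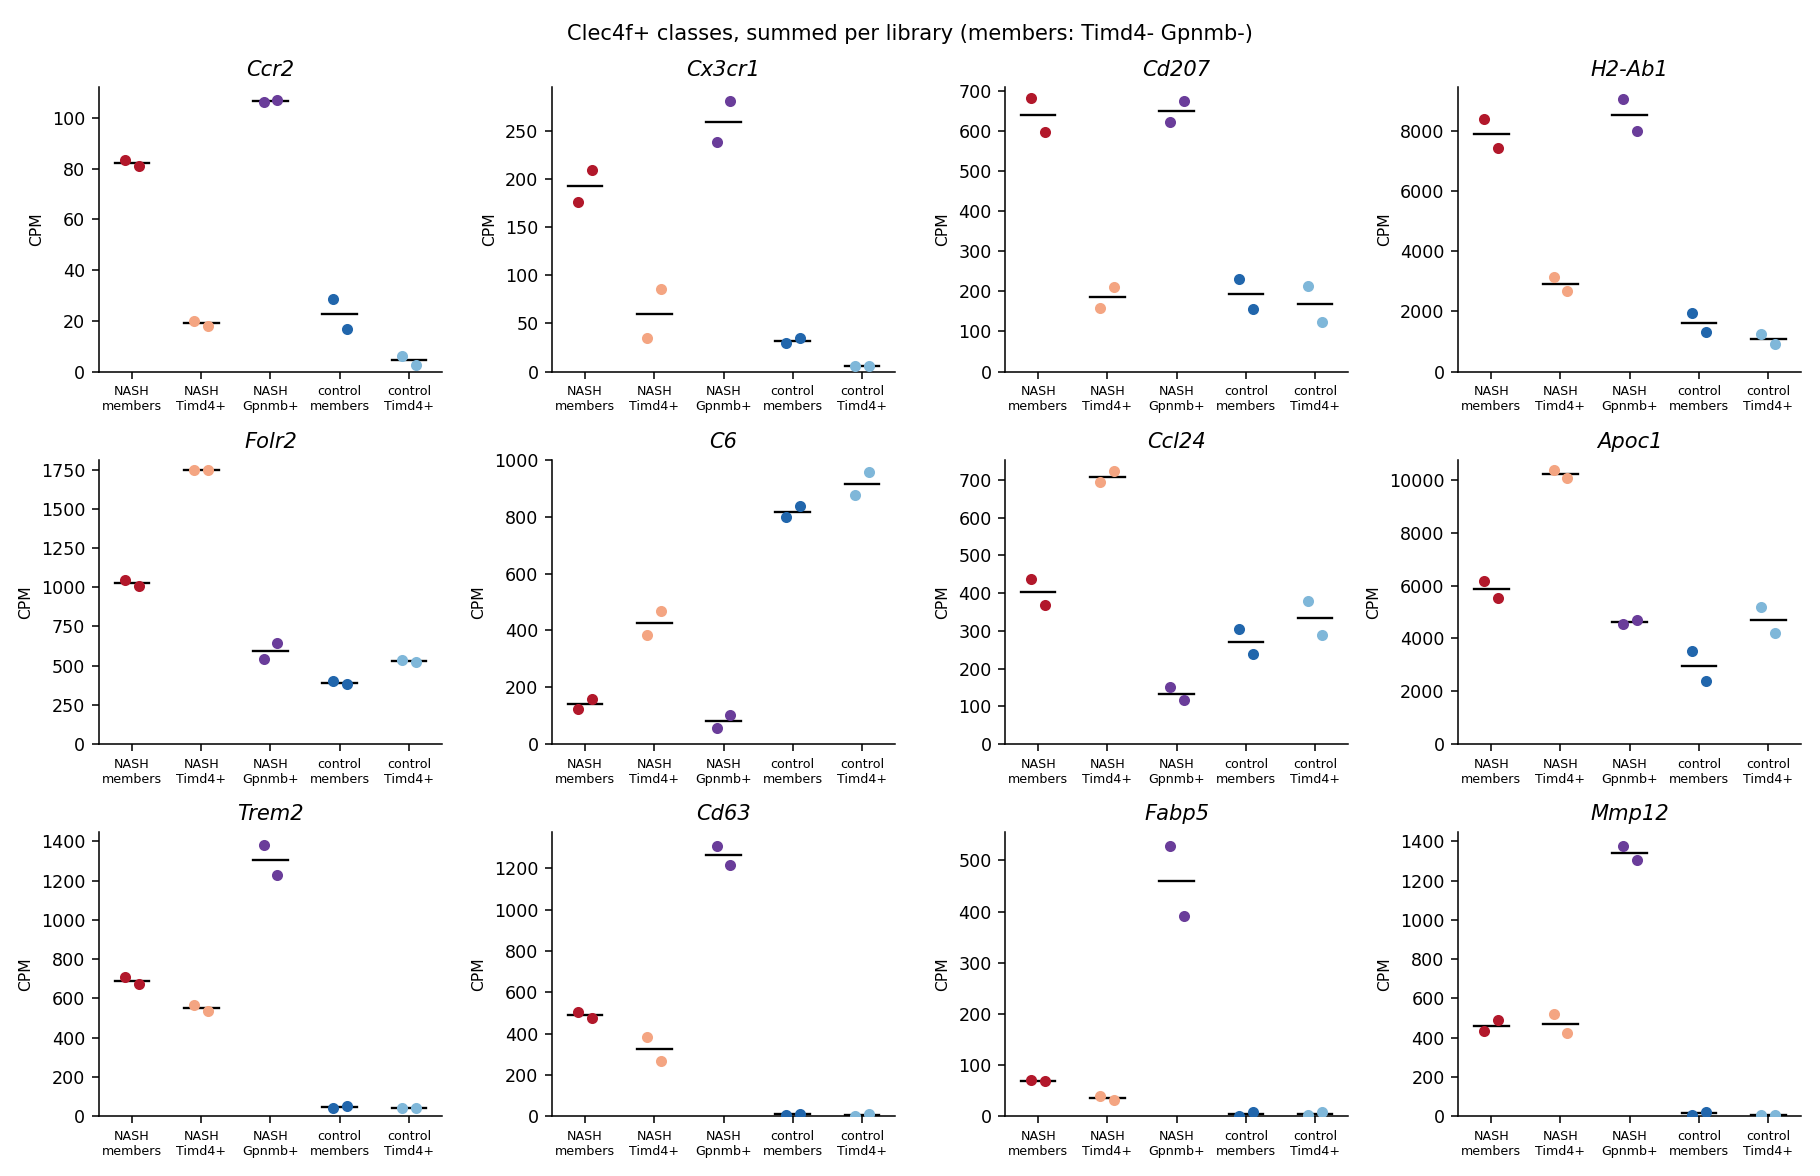
CPM of 12 genes in the classes of Clec4f+ cells, from left to right Timd4- Gpnmb- (members), Timd4+ and Gpnmb+ cells of NASH libraries, then Timd4- Gpnmb- and Timd4+ cells of control libraries. Dots are libraries (n = 2 per class), lines are means, and each panel has its own linear axis from 0. Ccr2, Cd207 and H2-Ab1 separate the NASH members from the NASH Timd4+ cells, while Trem2, Cd63, Fabp5 and Mmp12 are highest in the Gpnmb+ cells.

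In control libraries the same contrast gave fewer calls, with 19 genes higher (0.202%) and 88 lower (0.935%) in the Timd4- Gpnmb- cells, or 28 and 27 with library totals and 71 and 35 at the mitochondrial limit of 5%. At that limit 24 of these 107 calls were also made and 1 was made in the opposite direction. H2-Eb1 stood at 1488 and 998 CPM against 850 and 594 CPM in Timd4+ cells (log2 0.78, SE 0.06, edgeR adjusted p = 2.22e-12), H2-Ab1 at 1947 and 1309 against 1259 and 915 CPM (log2 0.58) and H2-Aa at 1952 and 1322 against 1239.8 and 903 CPM (log2 0.61, and 0.22 without a call after thinning). Cx3cr1 stood at 29.5 and 34.8 against 5.42 and 5.41 CPM (log2 2.54, SE 0.31) and Ccr2 at 28.5 and 16.8 against 6.10 and 2.70 CPM (log2 2.32, and 0.22 without a call after thinning). Ccl5, a chemokine of T and NK cells, stood at 46.7 and 106 against 17.6 and 25.7 CPM (log2 1.76, and 1.40 without a call when control library 2 was left out). Apoc1 stood at 3515 and 2398 against 5206 and 4220 CPM (log2 -0.68) and Folr2 at 402 and 381 against 538 and 520.1 CPM (log2 -0.43, and -0.42 without a call when control library 2 was left out).

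These control differences were the least stable of the comparisons. Of the 16 called genes followed through the alternatives here, 7 lost their call in cells with at least 3000 UMIs. At the mitochondrial limit of 5% the number was 5. It was 12 with the gate after thinning to 2000 UMIs, 8 with DESeq2 and 15 without the library block. Of 28 Kupffer identity genes 7 were lower and 0 higher, but 2 were lower after thinning, 2 with library totals, 3 (of 29) without control library 1 and 1 without control library 2. Hmgb2 (log2 0.63), the coat protein Copb1 (-0.72), Rfwd2 (-0.71), Stat6 (-0.71) and the cytokine Il18 (-0.65), which the rule also named, each lost their call without control library 1 (0.79, -0.86, -0.54, -0.75 and -0.88) or control library 2 (0.48, -0.56, -0.91, -0.69 and -0.49). Timd4- Gpnmb- cells of control libraries had medians of 2544 and 2001 UMIs against 3464 and 3213 in Timd4+ cells, and the Timd4-negative share there fell with depth as given above.

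The difference between the class contrasts of the diets was tested itself, in the same fit. It passed for 98 of 9409 genes (1.04%), with 69 positive and 29 negative, a split that became 25 and 63 with library totals and 49 and 36 with RLE size factors. C6 differed most clearly, with a value of -1.43 (SE 0.10, edgeR adjusted p = 2.34e-13), since it stood at 799.7 and 838 CPM in control Timd4- Gpnmb- cells against 876 and 957 CPM in control Timd4+ cells. Cd207 had a value of 1.53 (SE 0.15), with 231 and 155 CPM in control Timd4- Gpnmb- cells against 214 and 125 CPM in control Timd4+ cells. Tmem176b, a membrane protein of antigen-presenting cells, had a value of 1.39 (SE 0.15), at 372 and 366 against 120.0 and 166 CPM in NASH and 193 and 289 against 179 and 338 CPM in control libraries.

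The MHC class II genes and Apoe also passed, with Cd74 at 0.97, H2-Ab1 at 0.87, H2-Eb1 at 0.77, H2-Aa at 0.73 and Apoe at 0.76. With the gate set after thinning to 2000 UMIs all of these passed, with Cd74 at 0.94, H2-Ab1 at 0.97, H2-Eb1 at 0.98, H2-Aa at 0.93 and Apoe at 0.62, as did C6 at -1.08, Cd207 at 1.55 and Tmem176b at 0.93. That gate chose cells on thinned counts but summed their full counts, so its members include cells with Timd4 or Gpnmb UMIs. It held 361 and 515 NASH members, against 220 and 366 in the main gate. It is therefore no depth-matched check of the same cells. The values of the MHC class II genes and Apoe were smaller under the limits on depth and mitochondrial share. In cells with at least 3000 UMIs they were 0.49 for Cd74, which still passed, and 0.39, 0.22, 0.29 and 0.45 for H2-Ab1, H2-Eb1, H2-Aa and Apoe, which did not. At the mitochondrial limit of 5% they were 0.25 for Cd74, 0.09 for H2-Ab1, -0.18 for H2-Eb1, -0.03 for H2-Aa and 0.35 for Apoe, and none of these 5 passed. C6 (-1.20 and -0.81) and Tmem176b (0.99 and 0.86) passed under both limits, and Cd207 (0.90 and 0.92) under the first alone.

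**Figure D5:**
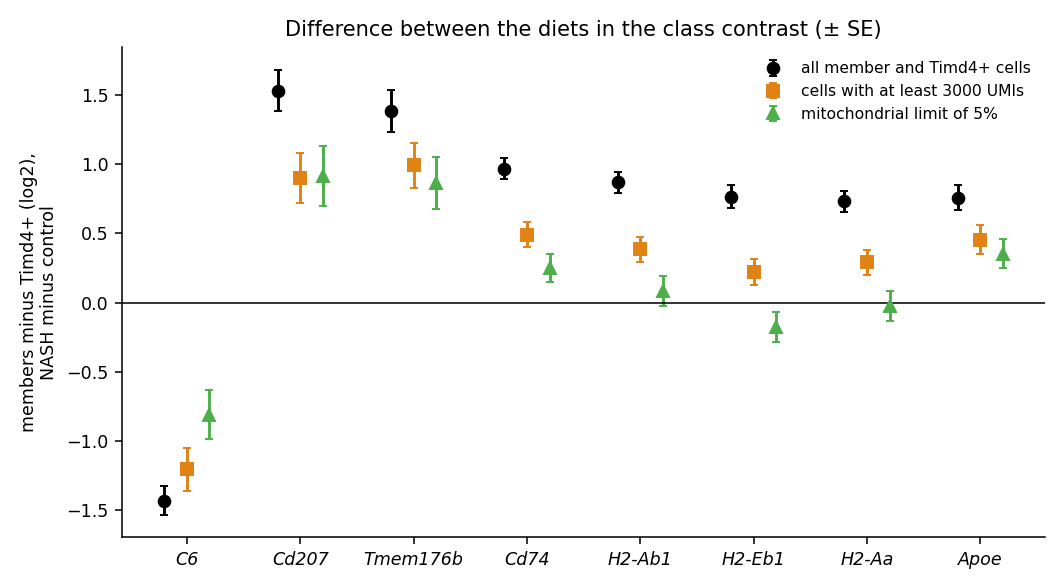
Difference between the diets in the contrast of Timd4- Gpnmb- with Timd4+ cells (y axis, log2, NASH minus control) for 8 genes, with standard errors, for all cells (black), cells with at least 3000 UMIs (orange) and a mitochondrial limit of 5% (green). C6 stays below and Cd207 and Tmem176b above 0 in all 3, while the 3 H2 genes come close to 0 or below it in the green series.

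The last comparison set the Timd4- Gpnmb- cells beside the Gpnmb+ Timd4- Clec4f+ cells of the NASH libraries, a class that control libraries hardly held. The Timd4- Gpnmb- cells held more Kupffer identity RNA and had less lipid- and scar-associated RNA, with 185 genes higher (1.97%) and 195 lower (2.07%). Of 28 Kupffer identity genes 16 were higher and 0 lower (median 0.40), and of 29 lipid- and scar-associated genes 0 were higher and 21 lower (median -0.64). These counts held between 9 and 17 and between 15 and 22 in every alternative. Gpnmb itself chose the classes, and genes that vary with it in a cell are part of that choice. The Gpnmb+ cells were also deeper, with medians of 9231 and 8751 UMIs against 7357 and 7367.5 in the Timd4- Gpnmb- cells.

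Among the genes higher in the Timd4- Gpnmb- cells, Ccl24 stood at 437 and 367 CPM against 149.7 and 116 CPM in Gpnmb+ cells (log2 1.59, SE 0.08, edgeR adjusted p = 2.85e-20), Folr2 at 1044 and 1007 against 539 and 645 CPM (log2 0.79) and Slc40a1 at 990.2 and 766 against 571 and 503 CPM (log2 0.70). The flow-sensing factor Klf2 (112 and 160.1 against 48.1 and 76.2 CPM, log2 1.13) and the adhesion receptor Adgre4 (log2 1.03) were higher, as were Ifitm6 (log2 1.37), Marcksl1 (log2 1.05), Ly6a (log2 1.00), Crip2 (log2 0.97) and the sulfotransferase Sult1a1 (log2 0.93). C6 (log2 0.81), Cdh5 (log2 0.83) and Cd5l (log2 0.40) followed.

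Among the genes lower in the Timd4- Gpnmb- cells, Fabp5 stood at 71.4 and 68.1 CPM against 529 and 391 CPM in Gpnmb+ cells (log2 -2.69, SE 0.12, edgeR adjusted p = 5.99e-21) and Atp6v0d2, a subunit of the lysosomal proton pump, at 8.93 and 11.5 against 86.1 and 57.8 CPM (log2 -2.70). Mmp12 stood at 433 and 488 against 1378 and 1303 CPM (log2 -1.53), Cd63 at 504 and 475 against 1309 and 1215 CPM (log2 -1.36), Trem2 at 710.3 and 672 against 1380.3 and 1228 CPM (log2 -0.91) and Lpl at 1510.4 and 1531 against 2303 and 2424 CPM (log2 -0.64). Also lower were H2-M2 (log2 -1.73), Lgals1 (log2 -1.32), the receptor Ptafr (log2 -1.31) and S100a4 (log2 -1.14, lost without NASH library 1 at log2 -0.79). Spp1 stood at 55.5 and 49.7 against 806 and 296 CPM and did not pass, with Gpnmb+ libraries that lay far apart (log2 -3.23, edgeR adjusted p = 0.104, from 3.90e-20 to 0.628 over the alternatives). It passed without NASH library 1 (log2 -2.59) or NASH library 2 (log2 -3.86).

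Cd207, H2-Ab1 and Ccr2, which set the Timd4- Gpnmb- cells apart from Timd4+ cells in NASH, did not pass between them and the Gpnmb+ cells. Cd207 stood at 682 and 597 CPM against 624 and 675 CPM in Gpnmb+ cells (log2 -0.03, SE 0.07, edgeR adjusted p = 0.921), H2-Ab1 at 8395 and 7445 against 9061 and 8000 CPM (log2 -0.11, adjusted p = 0.303) and Ccr2 at 83.5 and 81.2 against 107 and 107 CPM (log2 -0.37, adjusted p = 0.0863). A p that misses the threshold does not show equal levels. Ms4a7, H2-Aa and Cx3cr1 were lower in the Timd4- Gpnmb- cells. Ms4a7 stood at 256 and 268 CPM against 392 and 399 CPM in Gpnmb+ cells (log2 -0.59, SE 0.08). H2-Aa stood at 7601 and 6503 against 8589 and 7384 CPM (log2 -0.18, SE 0.05, edgeR adjusted p = 0.0162) and Cx3cr1 at 177 and 209 against 238 and 282 CPM (log2 -0.44, SE 0.11). The calls of H2-Aa and Cx3cr1 were lost with DESeq2 (log2 -0.19 and -0.44), after thinning (-0.14 and -0.26), at the mitochondrial limit of 5% (-0.21 and -0.49), without NASH library 1 (-0.20 and -0.44) and without NASH library 2 (-0.18 and -0.43). In order of level within NASH, Folr2 and Ccl24 ran from Timd4+ cells down through Timd4- Gpnmb- cells to Gpnmb+ cells, and Trem2 ran from Gpnmb+ cells down through Timd4- Gpnmb- cells to Timd4+ cells, where the last step rests on the weak call given above.

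In the mm10 annotation (GENCODE vM21), Clec4f, which the rule used, lies on chromosome 6 from 83644542 to 83656187 and Cd207 next to it from 83671215 to 83677857, both on the minus strand. Trem2 lies on chromosome 17 from 48346401 to 48354147, Cd163 on chromosome 6 from 124304656 to 124330527, C6 on chromosome 15 from 4727175 to 4814967 and Folr2 on chromosome 7 from 101839988 to 101857194, and all are protein-coding. Clec4f, a description here since it was used to choose the cells, stood at 3248 and 3672 CPM in NASH and 3601 and 3077 CPM in control Timd4- Gpnmb- cells, while its neighbour Cd207 was higher in NASH. In Timd4+ cells Clec4f stood at 4877 and 5411 CPM in NASH and 4179 and 3923 CPM in control libraries, and in Gpnmb+ cells of NASH libraries at 1663 and 2416 CPM.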

How the data were processed

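The authors deposited raw UMI counts for 27998 genes in every barcode, in 2 NASH and 2 control libraries. Cell Ranger, Seurat and the mm10 build are named per the submitters' processing notes, without versions. Barcode calling, filters before deposit and strand use: not given in the sources used here. The members, the Timd4+ and Gpnmb+ classes and the 27 gene lists were chosen with earlier results of these data known, so they support nothing independently.

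Counts were summed per library and class (at least 20 cells) and tested with edgeR 4.0.16 (limma 3.58.1, R 4.3.3), using TMM factors, filterByExpr, the robust quasi-likelihood F test and Benjamini-Hochberg adjustment over all genes at 0.05. Diet was fitted on the 4 member sums. Classes were fitted on 10 sums with the library as block. The 12 gate genes were described and not tested. The code was tested on simulated data. Shares carry exact Clopper-Pearson intervals and, where stated, cells thinned to 2000 UMIs. Where the gate was set after thinning, the thinned counts chose the cells and their full counts were summed for the fits. No doublets were removed in the main analysis; Scrublet in scanpy 1.11.5, at 0.8% per 1000 cells, was an alternative, as were DESeq2 1.42.0, other scalings, gates and each library left out. Counting intervals cover counting error only.

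The rule for named genes took the 12 largest called changes each way for diet (libraries not overlapping), 8 each way for the NASH classes and 5 each way for the control classes (same direction in both libraries), all with at least 50 CPM in the higher group. It added the 8 genes lowest in adjusted p for the interaction, the 4 tested members of each list with the smallest diet p, partners in their pathway, and a fixed set of macrophage genes. Part of these is printed. Mef2c and Lgals1 (between classes), Ciita, Fabp4, Mmp14 and Cd80 are list members set beside them. Counts of C4b, Mup3, Serpina3k and Lyz2, which have close copies, and of Abhd11os, antisense to Abhd11, are uncertain. The labels' shared replicate numbers were not used to pair the samples in the main fit. Some items are not reported here.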

Additional observations from a re-analysis of the deposited data

Results flagged for a closer look

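The difference between Timd4- Gpnmb- and Timd4+ cells itself differed between the diets for 98 genes in the test of that difference. Listed are the 8 lowest in adjusted p under the rule for named genes, with at least 50 CPM in a sum. On the log2 scale, NASH minus control, the values were -1.43 for C6, 1.53 for Cd207, 1.39 for Tmem176b, 0.97 for Cd74, 0.87 for H2-Ab1, 0.77 for H2-Eb1, 0.73 for H2-Aa and 0.76 for Apoe. Those of C6 and Tmem176b kept their direction and call in every alternative tried. The others lost their call at the mitochondrial limit of 5%, and in the control libraries the compared cells were also shallower and richer in mitochondrial UMIs, whose part in these values was not tested.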

How the results depend on the processing

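Depth, mitochondrial share and diet differ together, so the diet results rest on libraries of unequal depth, and each diet has 2 libraries. Genes changed by diet numbered 3051, and 1384 with DESeq2, 1416 in cells with at least 3000 UMIs, 551 at the mitochondrial limit of 5% (where 4 main calls were called in the opposite direction) and 2061 to 2392 with 1 library left out. Members and Timd4+ cells in NASH differed in 279 genes, and in 67 with DESeq2, 159 with the gate after thinning to 2000 UMIs, 33 without the library block and 80 to 294 with 1 library left out. In control they differed in 107 genes, and in 17 with DESeq2, 71 with RLE size factors, 55 with library totals, 38 from 3000 UMIs, 11 after thinning, 1 without the library block and 17 to 78 with 1 library left out. The interaction gave 98 genes, and 15 with DESeq2, 12 from 3000 UMIs, 52 after thinning, 17 at the 5% limit, 165 with no count filter and 25 to 89 with 1 library left out. Members and Gpnmb+ cells differed in 380 genes, in 63 with DESeq2 and in 147 to 380 with 1 library left out. The share of members moved to 70.3% and 84.8% in NASH with cells thinned to 2000 and 1000 UMIs, and in control to 41.7% and 63.1%, to 17.3% from 3000 UMIs and 21.6% at the 5% limit.

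Some log2 values without a call changed sign. Vsig4 by diet was 0.041 from 3000 UMIs and 0.15 at the 5% limit, and Adgre1 0.034 at the 5% limit and -0.42 to 0.071 with 1 library left out (0.071 without control library 2). Ly6c2 was 0.49 with at least 10 C1q UMIs per 1000, 0.18 after thinning, 0.99 at the 5% limit, 0.00072 with no count filter, 0.10 without NASH library 1 and 0.15 without control library 1, in a range of -0.32 to 0.15 with 1 library left out. Without 1 library S100a8 by diet ran from -0.29 (without NASH library 2) to 4.22, and Cd207 between members and Gpnmb+ cells from -0.19 to 0.13 (without NASH library 2). Of called genes named in the text, the interactions of H2-Aa (-0.026) and H2-Eb1 (-0.18) changed sign at the 5% limit. Of the called genes followed through the alternatives, 61 of 85 for diet, 14 of 35 for the NASH classes, 0 of 16 for the control classes and 23 of 32 for the Gpnmb gate kept their side of the threshold in every alternative. The causes were not tested.

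The deviations of same-numbered libraries from their diet means had a correlation of 0.0320 over 8059 genes. With 2 libraries per diet both replicate numbers give the same value. It cannot show whether same-numbered libraries shared a day or batch, and the labels leave that open. With the replicate block 2383 genes changed by diet.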
